A study of Mus musculus with 20 samples.

Results

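The matrix metalloproteinases (MMPs), the ADAMTS proteases and their tissue inhibitors (TIMPs) were examined in Py8119 mammary tumors of RiboTagEC mice. Members were taken by gene name from the count table, as every gene named Mmp, Adamts or Timp followed by its number, which gave 46 of 55866 genes: 23 Mmp, 19 Adamts and 4 Timp genes. The mice carried an HA-tagged Rpl22 allele (Rpl22HA/HA) together with Cdh5CreERT2 on a C57BL/6J background. In such mice tamoxifen switches on the tag in cells that use the Cdh5 promoter, which is active in endothelium, so that immunoprecipitation (IP) of HA from a tumor homogenate (input) pulls down endothelial ribosomes with their mRNA. Females received 75 mg/kg of tamoxifen for 5 days at 3 weeks of age and Py8119 murine breast carcinoma cells in a mammary fat pad at 8 weeks. Tumors of 30 mm3 (50 mm3 in the series' design text) were then treated 2 times per week by intravenous injection with 25 mg/kg of 6-3-A6, a mouse antibody that blocks Notch4, or with control mouse IgG, and were taken on day 10. Input and IP of 5 tumors per treatment were sequenced, which gave 20 libraries of 4 groups, and all mice, controls included, carried the same alleles and received tamoxifen. Tumor cells and all host cells other than those with Cre activity were untagged.

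MMPs are zinc-dependent endopeptidases that cut collagens, gelatins, elastin and other proteins of the extracellular matrix and the cell surface. Most are secreted as inactive proenzymes, and the membrane-type MMPs act at the cell surface, where Mmp14 also activates the gelatinase Mmp2. ADAMTS proteases are secreted relatives with thrombospondin repeats, of which some cut proteoglycans such as versican and aggrecan, some remove the propeptides of fibrillar collagens, and Adamts13 cuts von Willebrand factor. TIMPs bind and block the active site of these enzymes. In tumors, MMPs and ADAMTS enzymes come from stromal, myeloid, endothelial and tumor cells alike.

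Totals were between 11881214 and 26728205 counts per library (median 16942643). Levels are given as CPM, counts scaled to the size of the library. A count of 0 allows up to 3 counts, or 0.112 to 0.252 CPM depending on the library, where only counting error is covered. Endothelial content was scored by subtracting the average of macrophage, fibroblast and epithelial marker means from the mean of 17 endothelial markers (log2 CPM), and this score lay between -3.44 and -1.67 in the inputs and between 0.26 and 3.60 in the IP libraries. The 17 endothelial markers were all higher in IP (median log2 fold change 4.36). The title and the description line of the 6-3-A6 samples name opposite fractions, and the titles, which this score follows, were used. Of the 41 members with counts, 11 had their lowest input level in 6-3-A6 input 4, against 0 to 7 in each other input, and 9 had their highest there, against 0 to 11. After principal component analysis the study retained 6 of the 10 IP libraries, with numbers 2, 4 and 5 of control IgG and numbers 1, 3 and 4 of 6-3-A6, so that this choice was not independent of expression.

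Of the 46 members, 30 had enough counts to be tested in at least 1 comparison, 26 of them between IP and input and the other 4 (Adamts3, Adamts17, Mmp17 and Mmp27) between treatments only. A further 11 members had too few counts to pass the filter: Adamts8, Adamts13, Adamts16, Adamts18, Adamts19, Adamts20, Mmp1a, Mmp1b, Mmp20, Mmp21 and Mmp24. Their totals over all 20 libraries were between 6 counts for Mmp20 and 109 for Adamts16, with 27 for Adamts13, the protease of von Willebrand factor. Without the filter, and by DESeq2, Adamts8 was called higher in IP (0.129 to 0.833 CPM, against 0 to 0.167 CPM in input) and Mmp24 lower (0 to 0.130 CPM, against 0.0538 to 1.64 CPM, the highest being 6-3-A6 input 4), at levels mostly near the limit of 3 counts. The remaining 5 members, Timp1, Timp3, Timp4, Mmp19 and Mmp7, had 0 counts in every library.

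Of these, 4 members, including 3 of the TIMPs, lie wholly within a gene of the opposite strand. In the GRCm39 coordinates of the count table, Timp1 (chrX:20736405-20740974, plus strand) lies within Syn1, Timp3 (chr10:86136236-86185370, plus strand) within Syn3, Timp4 (chr6:115218853-115229166, minus strand) within Syn2 and the predicted gene Gm17482, and Mmp19 (chr10:128626779-128636693, plus strand) within the predicted gene Gm47093. Syn1, Syn2 and Syn3 encode synapsins, proteins of synaptic vesicles, and had 7292, 994 and 477 counts over the 20 libraries. Over the whole table, all 12587 genes that lie wholly within another gene had 0 counts, including all 6254 that lie within genes of the opposite strand alone, whereas 38.5% of the 30493 genes overlapped by no other gene had 0. The 0 of these members therefore cannot be read as absence of their mRNA, and whether the counts of their hosts hold reads of these members was not tested. Mmp7 (chr9:7692091-7699586), or matrilysin, is overlapped over 47.3% of its span by AV064505 and also had 0 counts. Timp2, the only TIMP with counts, is overlapped over 18.5% of its span by Cep295nl.

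**Figure D1:**
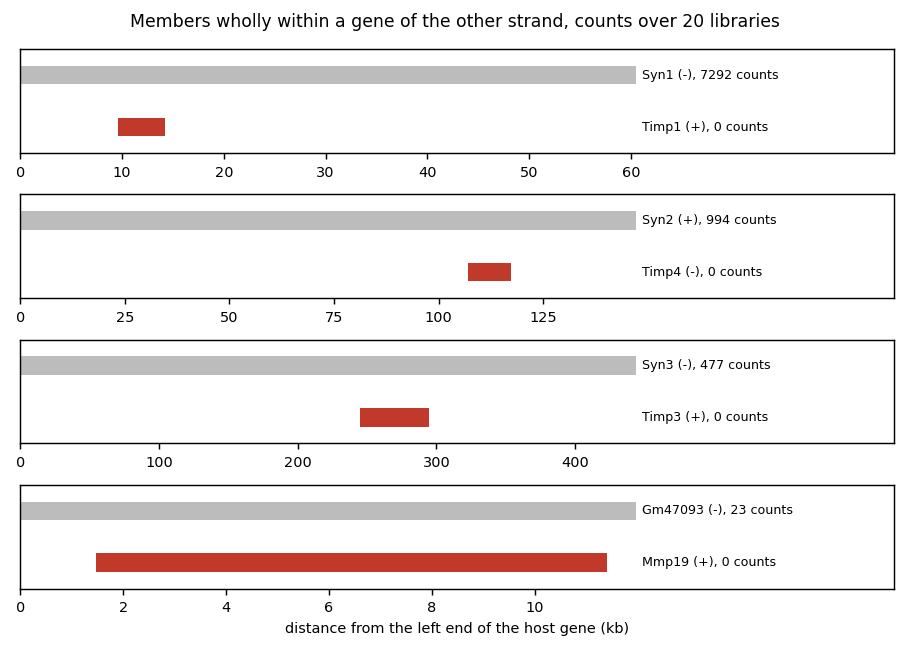
Position of Timp1, Timp4, Timp3 and Mmp19 (red) within a gene of the other strand (gray), as the distance in kb from the left end of the host gene, with each gene's counts summed over 20 libraries and its strand in parentheses. Each of the 4 members lies wholly inside its host and has 0 counts, while the hosts have 7292, 994, 477 and 23 counts.

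To determine which members were carried by endothelial ribosomes, IP was compared with input over all 20 libraries. Among the 26 tested members 6 were higher in IP and 8 were lower, against 19.8% of all 13582 tested genes called higher and 21.4% called lower (edgeR quasi-likelihood test, adjusted p under 0.05). The ADAMTS genes held 5 of the 6 that were higher (Adamts1, Adamts4, Adamts9, Adamts7 and Adamts12), whereas 6 of the 14 tested MMP genes were lower and only Mmp15 was higher. The median log2 fold change was -0.58 over the tested MMPs and 0.30 over the tested ADAMTS genes, against -0.05 over all genes. With input and IP of the same tumor taken as a pair, 13 members were lower instead of 8, the added ones being Adamts14, Adamts2, Mmp13, Mmp2 and Mmp25, while the calls over all genes rose from 5597 to 7120. In control IgG tumors alone 5 members were higher, without Adamts12, and 3 were lower, namely Mmp9, Mmp11 and Timp2, with 2163 of 13671 genes called. In 6-3-A6 tumors alone (2507 of 13790 genes called) 4 members were higher, without Adamts7 and Adamts12, and 8 were lower, with Mmp10 in place of Adamts6. In the tumors of the kept IP libraries (3347 of 13745) the same 4 members were higher and 7 were lower, without Adamts6. Between tumors or treatments, fewer cells of a type and less RNA per cell cannot be told apart in these bulk libraries.

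**Figure D2:**
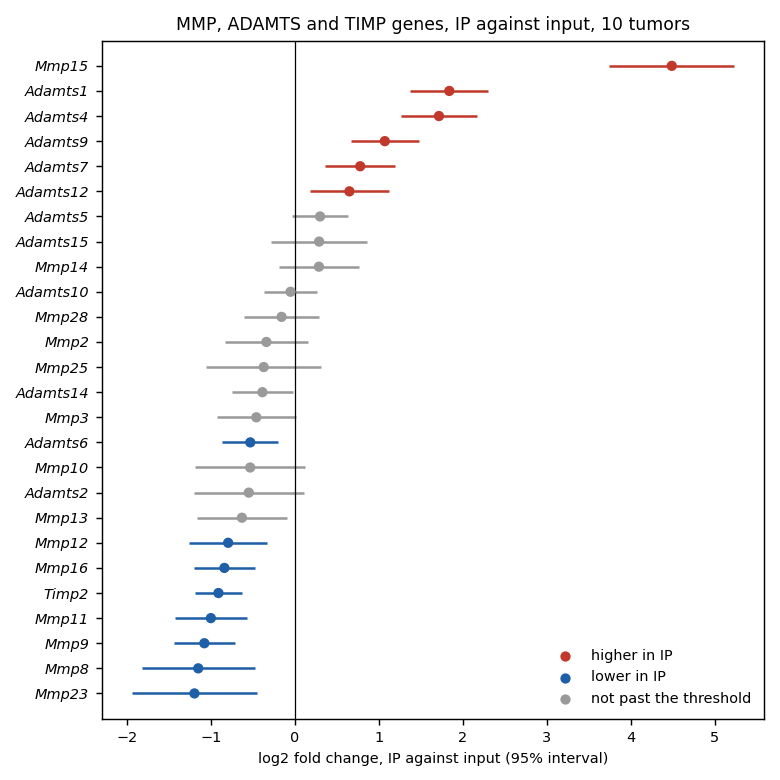
Log2 fold change of IP against input (points) with its 95% interval (lines) for the 26 tested members, over 10 inputs and 10 IP libraries, colored by the call at an adjusted p under 0.05. Mmp15 lies far to the right at 4.49, followed by 5 ADAMTS genes between 0.65 and 1.84, while 8 members, 6 of them MMPs, are called lower.

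Among the membrane-type MMPs, Mmp15 (chr8:96078896-96101708), which encodes MT2-MMP, showed the largest enrichment of all members. Its level in the inputs ranged from 0.273 to 4.91 CPM and in the IP libraries from 18.4 to 107 CPM with a median of 71.6. The groups did not overlap, and IP exceeded input in 10 of 10 tumors. The log2 fold change was 4.49 ± 0.36 (SE) with an adjusted p of 2.18e-09, and the lowest input value was that of 6-3-A6 input 4.

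Mmp14 (chr14:54669069-54682821), or MT1-MMP, was spread widely in both fractions, from 269.9 to 1041 CPM (median 573) in input and from 407 to 1527 CPM (median 622) in IP. Its difference did not pass the test (log2 fold change 0.28, 95% interval -0.20 to 0.77, adjusted p = 0.335), with IP above input in 7 of 10 tumors. Mmp16 (MT3-MMP) was lower in IP with a log2 fold change of -0.84 ± 0.18 and an adjusted p of 7.73e-04, and Mmp25, a membrane-anchored enzyme known from leukocytes, did not pass (-0.37 ± 0.33).

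The proteoglycan-cleaving ADAMTS group held 3 of the IP-enriched members among 5 tested, and all 5 had a fold change above 0. Adamts1 (chr16:85590715-85600001), which cuts versican and is known as an inhibitor of vessel growth, ranged from 21.7 to 60.7 CPM (median 36.9) in input and from 62.0 to 224 CPM (median 142) in IP. The fractions did not overlap, and the log2 fold change was 1.84 ± 0.22 with an adjusted p of 1.23e-06. Adamts4 (chr1:171077990-171088206), an aggrecanase, ranged from 11.2 to 39.4 CPM (median 26.8) in input and from 44.2 to 159 CPM (median 84.7) in IP, again without overlap. Its log2 fold change was 1.71 ± 0.22 with an adjusted p of 2.05e-06.

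Adamts9 (chr6:92749680-92920473), a versican-cleaving enzyme, ranged from 18.3 to 57.9 CPM (median 42.4) in input and from 49.97 to 127 CPM (median 86.2) in IP. The ranges overlapped, but IP was above input in 10 of 10 tumors, with a log2 fold change of 1.07 ± 0.19 and an adjusted p of 1.89e-04. Of its span, 28.6% is overlapped by other genes. Adamts5, the other main aggrecanase, ranged from 9.97 to 21.8 CPM in input and from 15.3 to 30.4 CPM in IP and did not pass the test, with a log2 fold change of 0.30 (95% interval -0.04 to 0.63, adjusted p = 0.142).

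Both ADAMTS genes known to cut cartilage oligomeric matrix protein (COMP) were higher in IP in 9 of 10 tumors each. Adamts7 (chr9:90045122-90090124) ranged from 9.47 to 45.7 CPM in input and from 35.05 to 94.2 CPM in IP, so that the groups overlapped (log2 fold change 0.78 ± 0.20, adjusted p = 0.00417, and 0.111 in 6-3-A6 tumors alone). Adamts12 had a log2 fold change of 0.65 ± 0.23 (adjusted p = 0.0282), and was not called in either treatment alone, in the tumors of the kept libraries, or without 6-3-A6 IP 1, 6-3-A6 input 3, control IgG IP 2, control IgG input 2 or control IgG input 3. The procollagen-processing members Adamts2 and Adamts14 lay below 0 without passing the test (-0.55 and -0.39). Of the fibrillin-associated members, Adamts6 was lower in IP (-0.53 ± 0.16, adjusted p = 0.0118) but not called in either treatment alone or in the tumors of the kept libraries, and Adamts10 was not called (-0.05 ± 0.15).

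The inhibitor Timp2 (chr11:118191895-118246566), which also takes part in the activation of Mmp2 by Mmp14, was lower in IP in 10 of 10 tumors. It ranged from 866 to 1783 CPM (median 1432) in input and from 590.4 to 1217 CPM (median 725) in IP, with an overlap of the ranges. The log2 fold change was -0.91 ± 0.13 with an adjusted p of 1.62e-05.

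Of the gelatinases, Mmp9 (chr2:164782700-164797770) was lower in IP, also in 10 of 10 tumors. Its input levels ranged from 14.4 to 46.5 CPM (median 31.9) and its IP levels from 6.72 to 28.4 CPM (median 14.8), and the log2 fold change was -1.08 ± 0.17 (adjusted p = 5.08e-05). Mmp2 (chr8:93553919-93580048) ranged from 8.74 to 42.1 CPM in input and from 13.1 to 41.2 CPM in IP, and its log2 fold change of -0.34 ± 0.24 did not pass (adjusted p = 0.251). With tumors paired, Mmp2 was called lower (-0.38, adjusted p = 0.0444).

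The collagenase Mmp8, known from neutrophils, was lower in IP in 10 of 10 tumors, with a range of 5.45 to 32.1 CPM (median 8.73) in input and of 2.44 to 11.7 CPM (median 4.38) in IP (log2 fold change -1.15 ± 0.33, adjusted p = 0.00759). The stromelysin Mmp11 was lower in 10 of 10 tumors (-1.003 ± 0.21, adjusted p = 6.90e-04), with 9.10 to 41.3 CPM in input and 7.83 to 25.5 CPM in IP, and 25.4% of its span is overlapped by Chchd10. The macrophage elastase Mmp12 was lower in 8 of 10 tumors, with 103 to 366 CPM in input and 86.7 to 296 CPM in IP (-0.80 ± 0.22, adjusted p = 0.00736). Mmp23 had the most negative fold change (-1.20 ± 0.36, adjusted p = 0.0112) on few counts, since its levels were 0.167 to 2.42 CPM in input and 0.172 to 1.22 CPM in IP. The remaining tested MMPs, Mmp13 (-0.63), Mmp10 (-0.53), Mmp3 (-0.46) and Mmp28 (-0.16), did not pass, and of the ADAMTS genes neither did Adamts15 (0.29). Neither Mmp8 nor Mmp23 was called in control IgG tumors alone (adjusted p = 0.183 and 0.240).

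The marker lists of other cell types are set here against the 21.4% of all genes called lower in IP. Of the macrophage markers, 8 of 12 tested were lower in IP and none was higher (median log2 fold change -0.72), with summed levels of 3437 to 8813 CPM in input and 2052 to 6059 CPM in IP. Of the fibroblast markers 4 of 10 were lower (median -0.62, summed levels 969 to 4638 CPM in input and 638 to 3689 CPM in IP). Of the epithelial markers 2 of 6 were lower (median -0.46, 246 to 526 CPM in input and 169.5 to 429 CPM in IP). Only 1 of 7 tested neutrophil markers was called lower (28.0 to 240.1 CPM in input and 16.5 to 91.5 CPM in IP). However, 0 of the 7 had a fold change above 0, and their median of -1.24 was the lowest of these lists. Of the mural markers 1 of 7 was lower (median -0.22, 107 to 224 CPM in input and 78.1 to 179 CPM in IP). Of the lymphoid markers 3 of 5 were lower (median -1.06), with summed levels of 35.4 to 240.5 CPM in input and 18.3 to 139.3 CPM in IP. The macrophage marker Itgam was at 0 counts in all libraries. The part of these cells in the levels of the members was not tested.

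**Figure D3:**
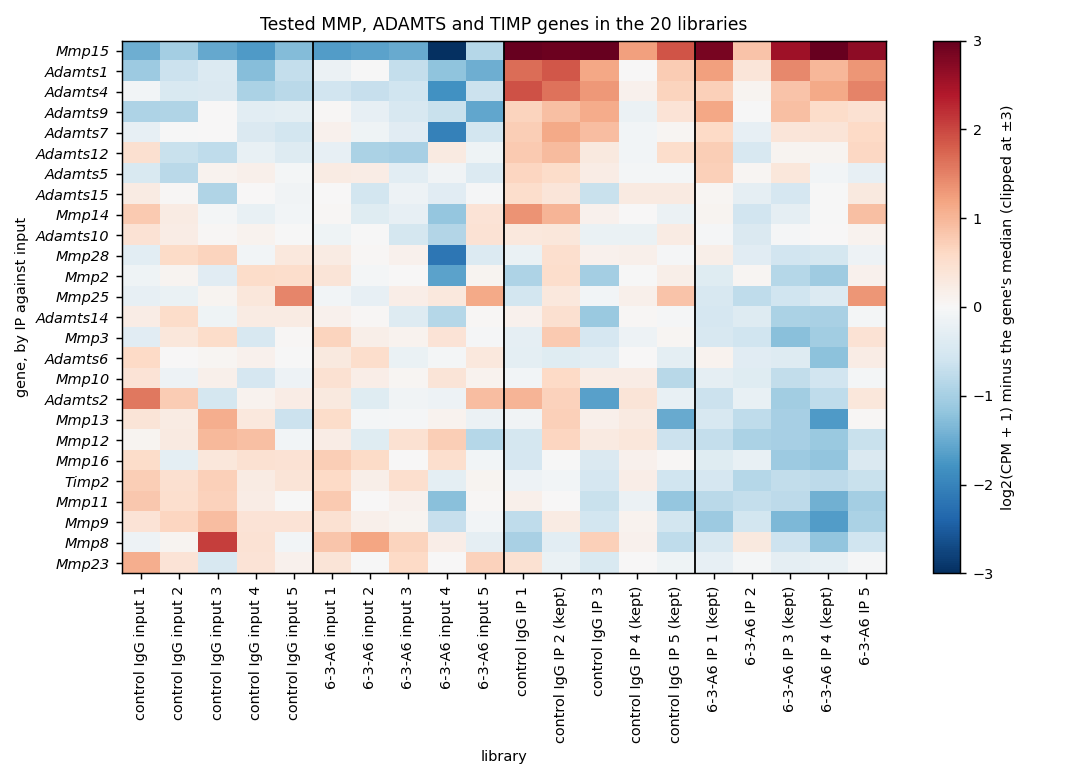
Level of the 26 members tested between IP and input in each of the 20 libraries, as log2(CPM + 1) minus the gene's median over the libraries, ordered by fold change, with vertical lines between the 4 groups and the kept IP libraries marked. The upper rows (Mmp15, Adamts1, Adamts4, Adamts9) are red in the IP libraries and paler in control IgG IP 4 and 6-3-A6 IP 2, and the lower rows (Timp2, Mmp11, Mmp9) are mostly blue there.

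On chromosome 9, 10 of the MMP genes lie side by side within 427.1 kb (chr9:7272514-7699586): Mmp13, Mmp12, Mmp1b, Mmp3, Mmp1a, Mmp10, Mmp8, Mmp27, Mmp20 and Mmp7. Of these, 5 were tested between IP and input, and all 5 had a fold change below 0, between -1.15 and -0.46, with Mmp8 and Mmp12 past the threshold. Genes of this cluster are known as targets of AP-1, the Fos and Jun transcription factors, so the RefSeq promoter windows (GRCm38.p6) were searched for the AP-1 letters TGAGTCA on both strands over the 250 bases before the start site. A window was found for 32 of the 46 members, 35 windows in all, and the 14 members without one all lie outside the cluster. The letters occurred in 7 of these 35 windows, against 4.46% of the 32851 windows of all genes, and the 7 belonged to Mmp10, Mmp12, Mmp13, Mmp1a, Mmp1b, Mmp3 and Mmp7 of the cluster. Mmp12 and Mmp7 have more than 1 window, and only 1 window of each held the letters. The window at the first start site of Mmp12 did not hold them, nor did that at the second start site of Mmp7. The TATA box letters TATAAA, searched on the sense strand, occurred in 9 member windows and in 7.59% of all windows. The ETS letters CCGGAAG, searched on both strands, occurred in none of the 35 member windows and in 6.91% of all windows, which says only that these letters are not in these windows.

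The 120 bases before the start site are shown for 4 cluster genes that were tested and hold the AP-1 letters, and for Adamts1, the IP-enriched member with TATA box letters, for comparison. Capitals mark the AP-1 letters, in either orientation, and the TATA box letters. None of the stretches overlaps an annotated exon, and that of Mmp12, which precedes the second of its 2 listed start sites, lies within an intron of the longer transcripts. The AP-1 letters begin 63 bases before the start site in Mmp10, 46 in Mmp3, 44 in Mmp12 and 35 in Mmp13, and a match is a description and not evidence of binding.
Mmp3 (chr9:7445702-7445821, plus strand): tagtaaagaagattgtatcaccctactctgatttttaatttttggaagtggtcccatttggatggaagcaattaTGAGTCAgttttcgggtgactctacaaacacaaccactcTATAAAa
Mmp10 (chr9:7502222-7502341, plus strand): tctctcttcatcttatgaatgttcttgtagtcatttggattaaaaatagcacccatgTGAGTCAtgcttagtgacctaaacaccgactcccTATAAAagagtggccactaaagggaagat
Mmp12 (chr9:7347254-7347373, plus strand): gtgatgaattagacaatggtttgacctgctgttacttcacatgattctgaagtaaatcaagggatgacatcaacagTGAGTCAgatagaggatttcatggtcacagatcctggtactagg
Mmp13 (chr9:7272394-7272513, plus strand): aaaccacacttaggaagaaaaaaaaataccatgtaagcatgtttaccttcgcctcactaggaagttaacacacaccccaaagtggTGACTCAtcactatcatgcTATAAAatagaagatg
Adamts1 (chr16:85803114-85803233, minus strand): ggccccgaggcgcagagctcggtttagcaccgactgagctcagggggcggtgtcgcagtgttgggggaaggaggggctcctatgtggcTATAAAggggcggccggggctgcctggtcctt

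To evaluate the effect of Notch4 inhibition on these genes in endothelial mRNA, the 3 control IgG and 3 6-3-A6 IP libraries retained by the study were compared. Of the 28 tested members, 6 were lower with 6-3-A6 (Mmp9, Adamts2, Mmp3, Mmp25, Mmp2 and Adamts14), and none was higher, against 2.04% of all 13999 tested genes called lower and 2.57% called higher. The median log2 fold change was -1.01 over the 14 tested MMPs and -0.07 over the 13 tested ADAMTS genes, against -0.05 over all genes. Without control IgG IP 4, 6-3-A6 IP 3 or 6-3-A6 IP 4, 0 members were called lower in each case, without control IgG IP 2 there were 2 (Mmp9 and Mmp25) and Mmp15 was called higher, and without 6-3-A6 IP 1 or control IgG IP 5 there were 5. The calls over all genes, 646 with the 6 libraries, were 188 of 14539 without control IgG IP 4, 9 of 14141 without 6-3-A6 IP 3 and 161 of 14637 without 6-3-A6 IP 4. They were 653 of 14154 without control IgG IP 2, 345 of 14506 without 6-3-A6 IP 1 and 578 of 14054 without control IgG IP 5. The fold changes of the 6 members stayed below 0 throughout.

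Both gelatinases were lower with 6-3-A6. Mmp9 was at 28.4, 25.8 and 16.0 CPM with control IgG (numbers 2, 4 and 5) and at 10.7, 8.83 and 6.72 CPM with 6-3-A6 (numbers 1, 3 and 4, the order used here for all members). Each 6-3-A6 value lay below each control value, and the log2 fold change was -1.45 ± 0.26 with an adjusted p of 0.0205. Mmp2 was at 41.2, 28.2 and 32.6 CPM with control IgG and at 21.9, 15.4 and 13.1 CPM with 6-3-A6 (-1.05 ± 0.24, adjusted p = 0.0373), again without overlap. In these libraries, kept after principal component analysis, the share of all genes without overlap was not computed. Absence of overlap is therefore a description for every member here and adds nothing to the calls.

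The procollagen-processing proteases Adamts2 and Adamts14 were lower as well. Adamts2 was at 24.3, 19.4 and 12.3 CPM with control IgG and at 9.001, 6.57 and 8.16 CPM with 6-3-A6 (-1.27 ± 0.26, adjusted p = 0.0266). Adamts14 was at 71.9, 52.5 and 50.4 CPM with control IgG and at 35.7, 25.9 and 25.5 CPM with 6-3-A6 (-1.03 ± 0.22, adjusted p = 0.0277). Neither gene showed an overlap between the groups. Adamts3, the other member of this group, had few counts and did not pass (0.29 ± 0.52).

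In the chromosome 9 cluster, 5 of 5 tested genes had a fold change below 0, and only the stromelysin Mmp3 passed the threshold. Mmp3 was at 305, 158 and 185 CPM with control IgG and at 127, 73.7 and 85.7 CPM with 6-3-A6 (-1.21 ± 0.29, adjusted p = 0.0433). Mmp12 was at 296, 237 and 120.2 CPM with control IgG and at 115, 93.3 and 86.7 CPM with 6-3-A6. Its groups did not overlap, and its adjusted p was 0.0507 (-1.17 ± 0.30), so that it did not pass. It was called by DESeq2, by limma-voom with sample quality weights and by edgeR without a filter on low counts. The same held outside the cluster for the membrane-type Mmp16, at 19.7, 21.96 and 20.4 CPM with control IgG and at 15.2, 8.88 and 8.27 CPM with 6-3-A6, without overlap (-0.97 ± 0.26, adjusted p = 0.0583). The folds of Mmp10, Mmp13 and Mmp8 were -1.19, -1.13 and -0.58, with adjusted p of 0.312, 0.233 and 0.392.

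Mmp25 was at 6.58, 5.80 and 9.94 CPM with control IgG and at 3.38, 3.05 and 3.61 CPM with 6-3-A6 (-1.20 ± 0.28, adjusted p = 0.0370). The IP-enriched members were not called: Mmp15 had a log2 fold change of 0.73 (95% interval -0.10 to 1.55), Adamts9 of 0.42 (-0.19 to 1.03), Adamts1 of 0.13 (-0.70 to 0.96), Adamts4 of -0.06 (-0.77 to 0.64), Adamts7 of -0.07 (-0.72 to 0.58) and Adamts12 of -0.24 (-0.89 to 0.42). Mmp14 and Timp2 did not pass either, with fold changes of -0.47 (-1.16 to 0.22) and -0.58 (-1.14 to -0.02) and adjusted p of 0.460 and 0.238. These intervals are not adjusted for the number of genes tested. All of them include 0 except that of Timp2, which was not called after adjustment.

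The score of endothelial content moved with the treatment groups in these 6 libraries. It was 1.59, 0.26 and 1.26 with control IgG and 2.97, 3.15 and 3.14 with 6-3-A6, so that each 6-3-A6 library lay above each control. Of the macrophage markers, 6 of 12 tested were lower with 6-3-A6 (median log2 fold change -0.95), with summed levels of 4005 to 5181 CPM in the controls and 2052 to 2490 CPM with 6-3-A6. Of the fibroblast markers 2 of 10 were lower (1571 to 3313 CPM against 722 to 1530 CPM), of the epithelial markers 2 of 6, of the mural markers 1 of 7 and of the neutrophil markers 0 of 5 tested, and 5 of 17 endothelial markers were higher (median 0.86). With the score as a covariate 0 of 13999 genes were called, and so 0 members, with fold changes of the 6 genes between -2.18 and -1.22 and an adjusted p of 0.912 for each. The groups and the endothelial content cannot be told apart in these 6 libraries.

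**Figure D4:**
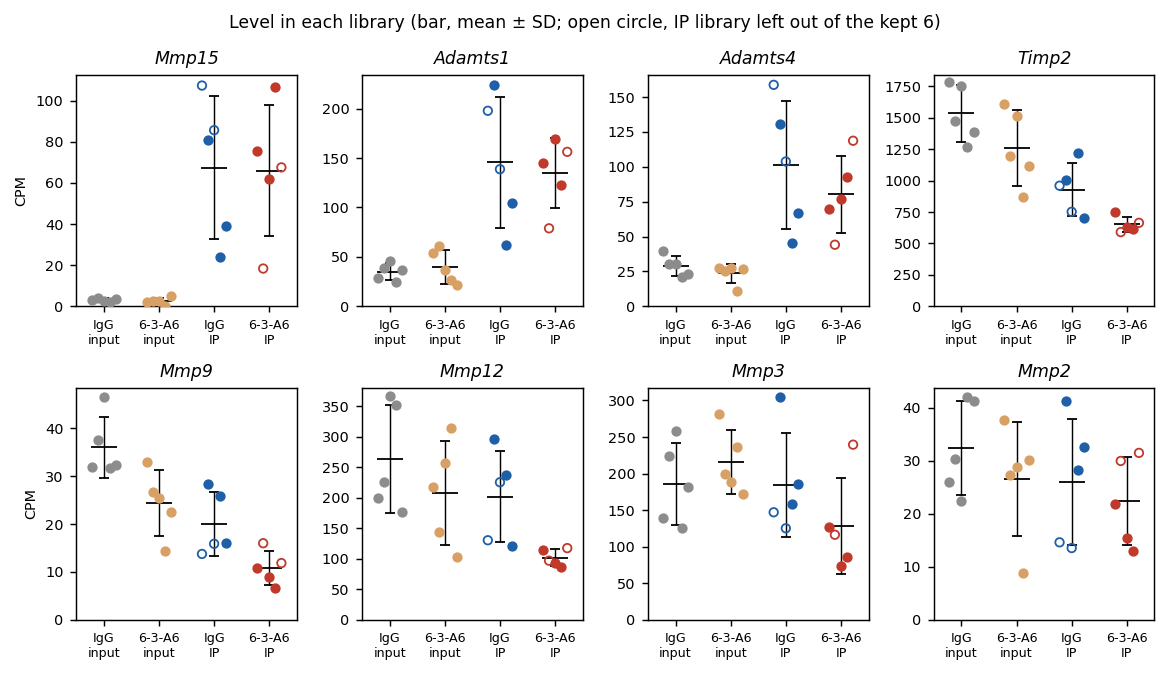
Level in CPM (linear axes from 0) of 8 members in each library of the 4 groups, 5 libraries each, with the mean ± SD as bars and the 4 IP libraries that the study left out as open circles. Mmp15, Adamts1 and Adamts4 are high in IP in both treatments, Timp2 and Mmp9 are lower in IP than in input, and for Mmp2 both open circles of 6-3-A6 lie among the control IgG IP values.

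In all 10 IP libraries 0 of 13602 genes were called (0.0%), and so 0 of 27 tested members by edgeR, DESeq2 or limma-voom, with 4 members (Mmp12, Mmp9, Timp2 and Mmp11, all below 0) and 292 of all 13602 genes at an unadjusted edgeR p under 0.05. All 13 tested MMPs had a fold change below 0 in this comparison, with a median of -0.50 against 0.01 over all genes. Mmp12 was at 130.3, 296, 225, 237 and 120.2 CPM with control IgG and at 115, 96.8, 93.3, 86.7 and 117 CPM with 6-3-A6, without overlap (log2 fold change -0.98 ± 0.24, edgeR adjusted p = 1.0). Mmp9 was at 13.7, 28.4, 15.9, 25.8 and 16.0 CPM with control IgG and at 10.7, 16.0, 8.83, 6.72 and 11.8 CPM with 6-3-A6, and the groups overlapped (-0.88 ± 0.28, edgeR adjusted p = 1.0). By limma-voom with sample quality weights, 2659 of the 13602 genes had an unadjusted p under 0.05, and 0 were called. Over the alternative fits by edgeR, DESeq2 and limma-voom, the adjusted p of both genes lay between 0.0893 and 0.9999.

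In the 4 left-out libraries, several members called in the kept ones had values out of that order. Mmp2 was at 14.6 and 13.5 CPM in control IgG IP 1 and 3 and at 29.96 and 31.5 CPM in 6-3-A6 IP 2 and 5, the reverse of the order in the kept libraries. Mmp3 was at 239.5 CPM and Mmp25 at 14.2 CPM in 6-3-A6 IP 5, in which the summed macrophage markers reached 6059 CPM against 2052 to 2738 CPM in the other 4 libraries of its group. The fold changes over all 10 libraries were -0.21 ± 0.35 for Mmp2, -0.51 ± 0.34 for Mmp3, -0.16 ± 0.49 for Mmp25, -0.72 ± 0.45 for Adamts2 and -0.53 ± 0.29 for Adamts14. The endothelial scores of the left-out libraries were 2.75 and 3.60 for control IgG IP 1 and 3 and 0.54 and 1.91 for 6-3-A6 IP 2 and 5.

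**Figure D5:**
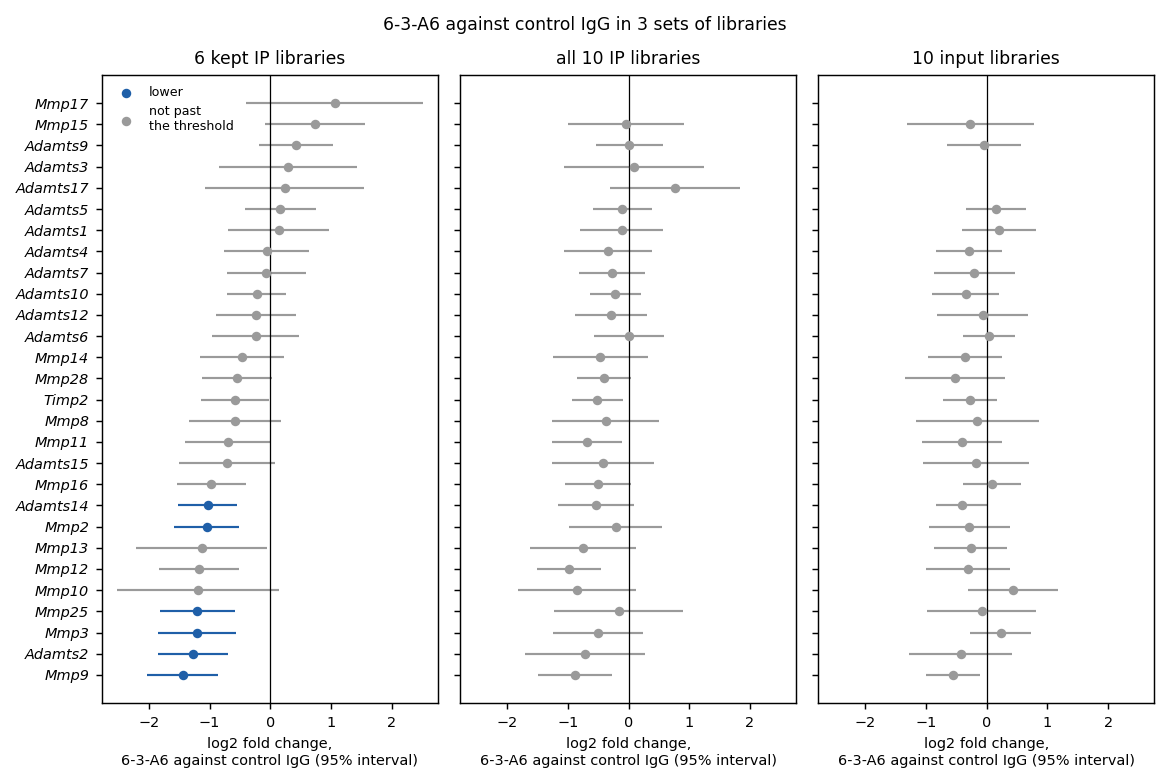
Log2 fold change of 6-3-A6 against control IgG (points) with its 95% interval (lines) for the members tested in the 6 kept IP libraries, beside the same genes in all 10 IP libraries and in the 10 inputs, with called members in blue. The 6 called members are lower in the kept libraries, between -1.45 and -1.03, and none in the other panels, where most points lie nearer to 0.

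In whole tumors, 0 of 13683 genes were called between 6-3-A6 and control IgG input (0.0%), and 0 of 27 tested members by edgeR, DESeq2 or limma-voom, with 1 member and 180 of all 13683 genes at an unadjusted edgeR p under 0.05. The member was Mmp9, at 32.0, 37.6, 46.5, 31.8 and 32.3 CPM with control IgG and at 33.1, 26.7, 25.4, 14.4 and 22.4 CPM with 6-3-A6 (log2 fold change -0.55 ± 0.21, edgeR adjusted p = 0.9999). Of the 5 treated tumors 4 lay below every control, and 1 lay among them. Adamts14 had the next lowest p (-0.41 ± 0.20), and Adamts1 (0.20), Adamts4 (-0.29), Timp2 (-0.28) and Mmp14 (-0.36) did not pass.

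Whether the effect of 6-3-A6 differed between IP and input was tested by the interaction of treatment and fraction. Of 14488 genes 0 were called (0.0%), and of 29 members 0 by edgeR, DESeq2 or limma-voom, with 1 member and 125 of all 14488 genes at an unadjusted edgeR p under 0.05. The member was the stromelysin Mmp10, which had low levels of 0.805 to 2.54 CPM in input and 0.441 to 2.87 CPM in IP (-1.29 ± 0.58, edgeR adjusted p = 0.9998), followed by Mmp16 (-0.59 ± 0.33). For Mmp9 the interaction was -0.33 with a 95% interval of -1.05 to 0.40.

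Genes that act together with these proteases were described from lists of regulators, ADAMTS-like proteins, membrane ADAMs and substrates. Of 14 tested regulators, 3 were higher in IP, among them the proprotein convertase Pcsk6 (log2 fold change 3.37) and the membrane-anchored MMP inhibitor Reck (0.75), and 4 were lower: Sdc4 (-1.14), Cd44 (-1.03), the plasminogen activator Plat (-0.68) and the MMP inducer Bsg (-0.67). Over all genes 19.8% were called higher and 21.4% lower, and the median of the regulators was -0.29 against -0.05. Of 7 tested membrane ADAMs, the shedding enzymes related to ADAMTS proteases, 4 were higher in IP (Adam12 1.33, Adam19 1.17, Adam9 0.83 and Adam10 0.45) and none was lower. Of 5 tested ADAMTS-like genes, which encode matrix proteins without a protease domain, Adamtsl4 (-1.14) and Adamtsl3 (-0.55) were lower.

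Among 14 tested substrates, the basement membrane collagens Col4a2 (2.01) and Col4a1 (1.66) and von Willebrand factor (Vwf, 3.38) were higher in IP, and Spp1 (-1.07), the proteoglycan Vcan (-0.85) and Dcn (-0.71) were lower, which is 3 of 14 in each direction. In the 6 kept IP libraries, where 2.04% of all genes were called lower, 5 of the 14 substrates were lower with 6-3-A6 (Spp1 -1.37, Thbs2 -1.26, Col1a2 -1.12, Dcn -1.07 and Fbn1 -1.01), as were Cd44 (-1.11) among 14 regulators and Thsd4 (-1.31) and Adamtsl3 (-1.29) among 5 ADAMTS-like genes, and no ADAM was called. Col1a2 and Dcn are also the 2 fibroblast markers counted as lower in these libraries, and Vwf is also one of the 17 endothelial markers, so that these genes stand in both lists. The macrophage markers (6 of 12) were lower in the same libraries, and their part in the values of the substrates was not tested. None of these genes was called in all 10 IP libraries or in the inputs, where no gene of the whole table was.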

How the data were processed

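RNA of 10 homogenates and 10 HA IP fractions was sequenced as 100 bp single reads. The authors aligned reads with STAR 2.7.4a, counted them with featureCounts (2.0.1 and 1.5.2 are both listed in the submitters' processing notes) and deposited raw counts per gene for 20 libraries. The lengths in that table are whole spans for nearly all genes, introns included. The gene positions are those of GRCm39, whereas the paper's text names mm10. The strand setting of the counting is not given in the sources used here. The signal values deposited by the authors for 6 IP libraries are counts divided by a size factor and served only to identify the kept libraries, by a constant ratio to the raw counts in 100% of genes (tolerance 1e-06). The fold changes and p-values in the same table are the authors' comparison of these libraries and were not used.

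Counts were tested over all genes with edgeR 4.0.16 (quasi-likelihood F test after TMM scaling and filterByExpr), with p-values adjusted by Benjamini-Hochberg and a threshold of 0.05, in R 4.3.3. IP against input had treatment as a term. SE and 95% intervals follow from the F statistic and its degrees of freedom. CPM values were scaled by TMM factors over 20 libraries, and log2 CPM used a prior count of 2. DESeq2 1.42.0 and limma 3.58.1 (voom with sample quality weights) served as alternatives, beside DESeq2 size factors, no filter on low counts, each library left out and blocks by tumor or number. The fits were tested on simulated data.

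The members, lists and roles were chosen with earlier results of these data known. Named genes are the TIMPs, members without counts, the 5 largest and 5 smallest called fold changes of IP against input, every member called between treatments or the 2 of lowest p, and Mmp2, Mmp9, Mmp14, Adamts1, Adamts4, Adamts5 and Adamts13, and further members are named to account for a count or to complete a role. Input and IP of a tumor came from 1 lysate and so from 1 animal, and their deviations from the group means correlated at 0.046 to 0.730 in 9 tumors and at -0.063 in 6-3-A6 tumor 4. Promoter sequences came from RefSeq (GRCm38.p6). Some genes of the lists are not reported here.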

Additional observations from a re-analysis of the deposited data

Results flagged for a closer look

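For 20 members, each of the 4 groups of 5 libraries was examined for a library far from the other 4. These members were the ones singled out in the comparisons by their call, by lowest p or by name, and not by level. Mmp10 and Mmp23, which had low levels, were among them, and Mmp13 was not. Such a library was found in 4 of 80 gene and group combinations, where chance flags about 1 in 20 groups. Adamts4 was at 11.2 CPM in 6-3-A6 input 4, against 25.2 to 27.8 CPM in the other inputs of that treatment, and the summed endothelial (178 CPM against 229.9 to 307 CPM), macrophage (3437 CPM against 3848 to 8813 CPM) and neutrophil markers (35.05 CPM against 61.1 to 144.2 CPM) were all lowest in that library. The epithelial and mural sums were lowest there as well. The lymphoid (95.6 CPM against 35.4 to 240.5 CPM) and fibroblast sums (2050 CPM against 1124 to 2294 CPM) were not. Mmp25 was at 15.8 CPM in control IgG input 5, against 4.15 to 6.73 CPM, and at 14.2 CPM in 6-3-A6 IP 5, against 2.57 to 3.61 CPM. The summed macrophage markers were likewise the highest of their groups in these libraries, at 6431 CPM against 4893 to 5778 CPM and at 6059 CPM against 2052 to 2738 CPM. The summed lymphoid markers were also highest there, at 78.1 CPM against 39.98 to 56.8 CPM and at 139.3 CPM against 18.3 to 21.1 CPM, as were the fibroblast markers in 6-3-A6 IP 5 (3056 CPM against 722 to 1535 CPM). Mmp8 was at 32.1 CPM in control IgG input 3, against 5.98 to 9.55 CPM, and the neutrophil markers of this library summed to 240.1 CPM against 28.0 to 71.4 CPM. The endothelial sum was also the highest of its group there (317 CPM against 236 to 312 CPM). The macrophage sum (4893 CPM against 5382 to 6431 CPM) and the fibroblast, epithelial and mural sums were the lowest. The part of the marked cells in these values was not tested.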

How the results depend on the processing

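The counts of members called for IP against input were 6 higher and 8 lower, and between 5 and 6 higher and 8 and 11 lower with each library left out. The tumor as a block gave 13 lower and control IgG tumors alone 3. In the kept IP libraries, members called lower changed from 6 to 12 with limma-voom and quality weights (1879 calls over all genes, against 646), to 9 without a filter (1459 calls), to 8 with DESeq2 (1194 calls), to 0 with the endothelial score as a covariate (0 calls over all genes) and to between 0 and 5 with each library left out. Members called higher changed from 0 to 1 (Mmp15) without a filter on low counts, and lay between 0 and 1 with each library left out. No fold change among the members followed through the alternatives (those named for IP against input, those called in the kept libraries and the 2 of lowest p in each other comparison) changed sign. Over all settings, 124 counts stayed within 1.5 times the reported value and 10 moved, and of the single-gene fits 503 stayed on their side of the threshold, 37 lost and 2 gained the call. The cause of these shifts was not tested. Replicate numbers are shared across treatments, and same-numbered control IgG and 6-3-A6 libraries correlated at -0.321 to 0.377 in their deviations. Input and IP of 6-3-A6 tumor 4, from 1 lysate, correlated at only -0.063. The correlations therefore cannot decide whether same-numbered libraries share more than a number. The block by number called 0 members in IP and in input, as did the tumor block for the interaction. The input of a tumor correlated best with its own IP for 3 of 5 control IgG and 4 of 5 6-3-A6 tumors. For the comparison of the 6 kept libraries alone, no block was fitted, since its groups share only number 4. Depth limits what can be said of members with few reads, since 3 counts are 0.112 to 0.252 CPM.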

Other observations

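The genes whose log2 CPM over the 20 libraries was most like that of Mmp9 among 13581 others were Gstt1 and Sulf2 (Pearson r 0.948 each), Hapln4 (0.943), Pcyox1 (0.939) and Matn2 (0.936). For Timp2 they included 9530068E07Rik (0.963), Emp2 (0.959), Snhg18 (0.943) and Tm7sf3 (0.942). The libraries share the split into input and IP, so that these values are a description.

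Several members with few counts had their highest input level in 6-3-A6 input 4. Adamts3 was at 5.10 CPM there against 0.106 to 0.917 CPM in the other 9 inputs, and Adamts17 at 2.91 CPM against 0 to 0.700 CPM. In the same library Mmp15 (0.273 CPM), Mmp28 (3.10 CPM), Adamts7 (9.47 CPM) and Mmp2 (8.74 CPM) had their lowest input levels.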
